A study of Rattus norvegicus with 12 samples.

Results

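Long noncoding RNAs are transcripts that are not translated into a recognised protein. Some act in the nucleus on chromatin or as scaffolds, some serve as the precursors of microRNAs or small nucleolar RNAs (snoRNAs), and many are transcribed close to a coding gene. Annotated sets also hold transcripts that lie just beyond the 3′ end of a coding gene and genes whose coding sequence was missed. The levels of annotated long noncoding RNAs were followed in rat jaw bone around dental implants, and 207 of the 2488 rows with the biotype lncRNA, out of 33801 gene rows in the table, were retained. Levels are in FPKM, fragments scaled to gene length and to a factor for each library. These 207 had at least 5 FPKM in at least 3 of the 12 libraries and an Ensembl gene identifier. They were chosen by this measured level. Their presence at that level is therefore no finding.

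All libraries came from wild-type rats carrying mini implants at the site of the maxillary first molar, and each was made from polyadenylated RNA of a 4 mm disc of bone around the implant. The 4 groups held 3 libraries each: Nb3 implants, of the alloy Zr58Cu25Al14Nb3, under cyclic loading for 2 weeks (loaded Nb3); Nb3 implants left static (non-loaded Nb3); titanium implants, labelled cpTi, under the same loading (loaded cpTi); and static titanium implants (non-loaded cpTi). The study asked how peri-implant bone differs with and without loading. The labels do not say whether the 3 libraries of a group came from separate animals, so the p-values measure only the spread between these libraries, and they give no age or sex. Between 12911912 and 22308428 reads per library fell on annotated genes, of which the 207 RNAs took 0.600 to 0.814%. Differences were tested with limma on log2(FPKM + 1) over 15268 genes, with Benjamini-Hochberg adjustment over all of them, and a gene was called at an adjusted p below 0.05.

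Most of the 207 had no name. A symbol other than a placeholder was carried by 14, and all 14 were symbols of coding genes. The table described 37 of the 207 as a known protein, or as similar to one, and 7 carried a Pfam protein domain, so the biotype and the description went against each other for these. Among the 37 were Gpx3, the extracellular glutathione peroxidase, Hilpda, a lipid droplet protein induced by hypoxia, and rows described as RHOB, a small GTPase, Gas1, a membrane protein that binds hedgehog ligands, and Cebpa, a transcription factor of myeloid and fat cells. For 28 of the 37, no other row of the table carried that protein's symbol. Another 7 were described as uncharacterized loci. None of the 207 carried as its symbol any of 81 well-known names that were looked for. The names came from lists of long noncoding and other noncoding RNAs, among them Malat1, Neat1, Xist, Meg3, Kcnq1ot1, Gas5 and Snhg1. The search was by symbol alone. A well-known RNA listed under a placeholder, as 193 of the 207 were, would be missed. Some of the snoRNA hosts described below are listed in that way. By symbol, the table held 3 of the 81: H19 and Tug1 were listed with the biotype protein_coding and Rpph1 as a ribozyme. The choice by biotype leaves these 3 out.

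Levels were modest. The mean over the 12 libraries ran from 2.80 to 145 FPKM with a median of 9.99 FPKM, against a median of 13.3 FPKM for the 9819 coding genes that passed the same floor. In 119 of the 207 every library reached 5 FPKM, and in 11 exactly 3 libraries did. Just inside the floor, ENSRNOG00000069152 had 5.03 FPKM in the library that ranked 3 in level, and just outside it ENSRNOG00000067663 had 4.87 FPKM. The 6 highest means were those of Gpx3 at 145 FPKM, ENSRNOG00000016410 at 128 FPKM, ENSRNOG00000064136 at 99.8 FPKM, ENSRNOG00000019682 at 90.8 FPKM, ENSRNOG00000021403 at 65.1 FPKM and ENSRNOG00000069616 at 52.6 FPKM. Of these, 4 named a protein: Gpx3 itself, ENSRNOG00000016410 (Prelid1), ENSRNOG00000019682 (Timm13) and ENSRNOG00000021403 (RHOB). Prelid1 and Timm13 serve lipid and protein transport in mitochondria.

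The positions of the 207 were uneven. Of the 207, 167 (80.7%) lay beyond the 3′ end of their nearest coding gene, 87 on its strand and 80 on the opposite strand facing it tail to tail. Among the 2273 other lncRNA rows with a coding gene on their chromosome, 840 (37.0%) did. Within 5 kb the shares were 73.9% of the 207 and 18.3% of the others. The median gap to the nearest coding gene was 963 bp among the 207 and 5077 bp among the others. A gene length equal to the genomic span, which means a single exon, was found in 127 of the 207 (61.4%), in 306 of the 2281 other lncRNA rows (13.4%) and in 2089 of 23096 coding rows (9.04%). None of the 2488 rows overlapped a coding gene, and the 207 were spread over 21 chromosomes, with 9 RNAs on X. The 207 fall into 37 that named a protein, 149 that named none and lay past a 3′ end (112 of these with a single exon), and 21 others.

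Many of these RNAs differed with loading around Nb3, as did many genes of all kinds. Taking higher and lower together, the share called was near that of genes over the same 5 FPKM floor. With loading in Nb3, 56 of the 207 were called higher, against 20.7% of all genes tested, and 51 lower, against 25.2% of all genes tested. Among the genes of all kinds that passed the 5 FPKM floor, 21.3% were called higher and 29.9% lower. The share called higher was 27.1% of the 207 and the share called lower 24.6%, and the median log2 difference was 0.08 over the 207 and -0.02 over all genes tested. With scaling to total reads the median of all genes was -0.17, and 39 of the 207 were called higher and 64 lower. Under loading, Nb3 against cpTi gave 56 higher (background 14.7%) and 34 lower (background 18.9%), which total-read scaling turned into 31 and 39. The loading difference itself differed between the materials (an interaction term) for 46, 24 upwards in Nb3 (background 8.42%) and 22 downwards (background 11.8%). That count was 15 and 29 with total-read scaling, and 30 in all without loaded cpTi replicate 1. The backgrounds are those of the main fit, and none is given for the counts under alternatives. Loading in cpTi gave 0 calls among the 207 by limma (background 0.00655%, a single gene), with 27 of the 207 at an unadjusted p under 0.05, and limma-voom on whole reads also gave 0. Material without loading gave 0 calls by limma and by limma-voom (background 0.0%), with 7 of the 207 at an unadjusted p under 0.05.

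**Figure D1:**
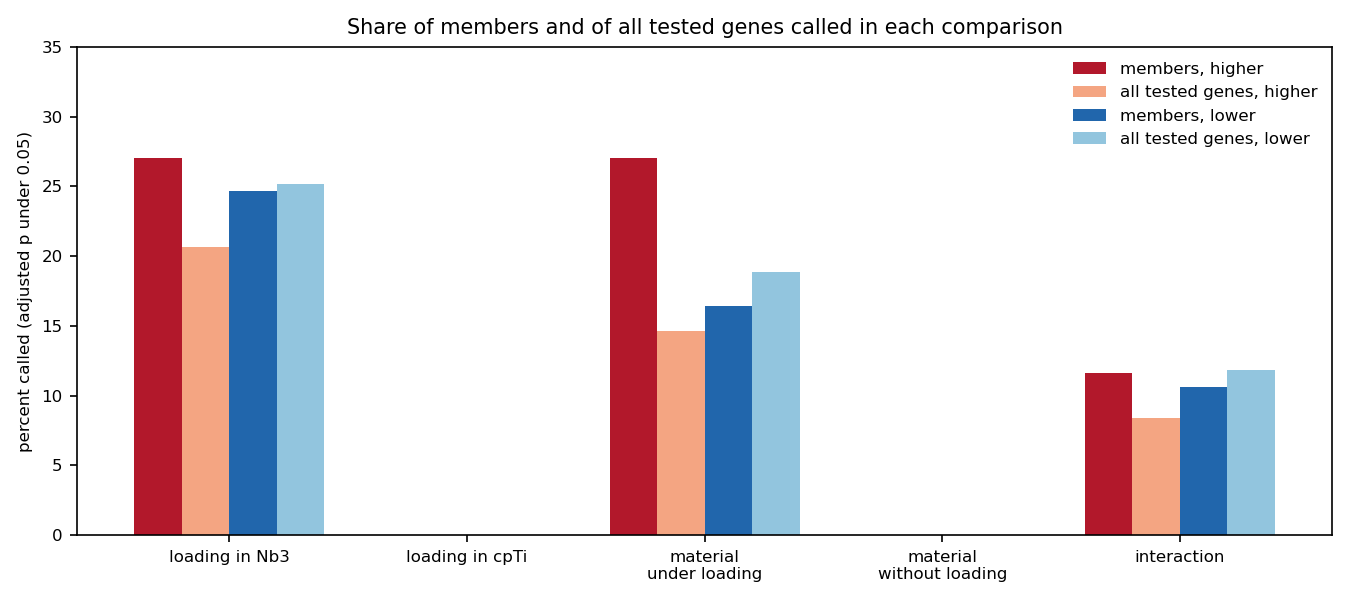
Percent of the 207 RNAs and of all 15268 tested genes called higher or lower at an adjusted p under 0.05, for each of the 5 comparisons. Bars start at 0; visible bars lie in the 3 comparisons that include loaded Nb3, with 27.1% of the 207 called higher with loading in Nb3 and 27.1% higher in Nb3 under loading.

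The loaded Nb3 libraries stood apart from the rest: their correlations with the other 9 libraries were 0.73 to 0.87, while those 9 correlated at 0.93 to 0.97 among themselves, and mitochondrial genes took 11.3 to 24.3% of their reads against 4.31 to 6.86% elsewhere. Cell markers moved with them. All 6 tested neutrophil precursor markers, all 6 erythroid, all 6 B lineage and all 5 cell cycle markers were called lower with loading in Nb3. The summed neutrophil precursor markers were 8.06 to 50.6 FPKM in loaded Nb3 and 3004 to 6844 FPKM in non-loaded Nb3, and the summed erythroid markers 2.66 to 16.9 FPKM and 1457 to 1922 FPKM in the same order of groups. The 5 fibroblast and ligament markers and the 4 smooth muscle markers were all called higher, as were 4 of 5 endothelial and 4 of 4 Schwann cell markers. The summed fibroblast and ligament markers were 1073 to 1629 FPKM in loaded Nb3 and 111 to 160 FPKM in non-loaded Nb3. Of the osteocyte markers 0 of 4 were called, of the osteoclast markers 1 of 4 higher, of the skeletal muscle markers 1 of 3 higher and of the epithelial markers 1 of 2 lower. No marker of these lists was at 0 in all loaded Nb3 libraries. Osteoblast and osteocyte markers were detected in every group. The 6 osteoblast markers, Col1a1 among them, summed to 5912 to 16259 FPKM in loaded Nb3 and 2850 to 6223 FPKM in non-loaded Nb3. With loading in Nb3, 1 of the 6 was called higher. Their sums were 8777 to 10155 FPKM in loaded cpTi and 3075 to 5072 FPKM in non-loaded cpTi. The 4 osteocyte markers summed to 634 to 2545 FPKM in loaded Nb3 and 701 to 2195 FPKM in non-loaded Nb3. In cpTi they summed to 957 to 1804 FPKM with loading and 317 to 814 FPKM without. The part of these shifts in the calls below was not tested, and in bulk tissue fewer cells of a type and less RNA per cell cannot be told apart.

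The RNAs that rose furthest with loading in Nb3 lay next to Col8a1, Cd34, Col5a1 and Calcrl, genes of matrix, blood vessels and peptide signalling, or named a protein (Tcim and RHOB). ENSRNOG00000064142 (chromosome 11, 42908366 to 42909428, plus strand, in the coordinates of the deposited table), a single exon 1942 bp past Col8a1, had 16.4, 17.9 and 19.7 FPKM in loaded Nb3, against 1.89, 0.992 and 1.34 FPKM in non-loaded Nb3. In loaded cpTi it had 2.02, 4.37 and 6.80 FPKM, against 4.06, 11.3 and 5.22 FPKM in non-loaded cpTi. Every loaded Nb3 library lay above all 9 others. Its log2 difference with loading was 2.99 ± 0.36 (SE, limma, adjusted p = 9.1e-05) in Nb3 and -0.54 in cpTi. Col8a1, a short-chain collagen of vessel walls, had 8.29, 12.1 and 13.7 FPKM in loaded Nb3, against 2.05, 0.740 and 1.03 FPKM in non-loaded Nb3 (log2 difference 2.46, limma adjusted p = 0.0032).

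ENSRNOG00000064648 (chromosome 13, 106499883 to 106501619, plus strand) starts 51 bp past Cd34, a surface glycoprotein of endothelial and progenitor cells. It had 27.3, 51.4 and 21.3 FPKM in loaded Nb3, against 4.25, 4.52 and 2.62 FPKM in non-loaded Nb3. In loaded cpTi it had 4.57, 6.49 and 4.37 FPKM, against 3.18, 4.37 and 5.50 FPKM in non-loaded cpTi. The loaded Nb3 libraries did not overlap the others, and the second was the highest. Outside loaded Nb3, only the libraries at 6.49 and 5.50 FPKM reached 5 FPKM. The RNA thus met the floor through loaded Nb3, so this lack of overlap is no finding and its difference is a description only. The log2 difference was 2.77 ± 0.30 (SE, limma, adjusted p = 4.4e-05), and that of Cd34 itself was 2.76 (limma, adjusted p = 9.0e-05).

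ENSRNOG00000064136 (chromosome 3, 11354747 to 11357054, plus strand) lies 159 bp past Col5a1, which encodes a chain of type V collagen, and ranked 3 in mean level among the 207. It had 247, 211 and 209.7 FPKM in loaded Nb3, against 56.1, 41.1 and 31.8 FPKM in non-loaded Nb3. In loaded cpTi it had 65.8, 114 and 81.8 FPKM, against 34.99, 63.6 and 40.8 FPKM in non-loaded cpTi. Loaded Nb3 was above every other library, and each loaded cpTi library was above each non-loaded cpTi library. The log2 difference with loading was 2.38 ± 0.27 (SE, limma, adjusted p = 5.7e-05) in Nb3 and 0.90 in cpTi (limma, adjusted p = 0.61). Col5a1 had 126, 121 and 166 FPKM in loaded Nb3, against 60.8, 31.8 and 34.4 FPKM in non-loaded Nb3, a log2 difference of 1.72 (limma, adjusted p = 0.00081).

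ENSRNOG00000067710 (chromosome 3, 69428351 to 69429624, plus strand) faces Calcrl, the receptor for calcitonin gene-related peptide and adrenomedullin, tail to tail at 496 bp. It had 40.3, 57.5 and 46.5 FPKM in loaded Nb3, against 11.4, 11.8 and 8.22 FPKM in non-loaded Nb3, while the 6 cpTi libraries held 9.38 to 13.8 FPKM. The log2 difference was 2.10 ± 0.18 (SE, limma, adjusted p = 8.0e-06), with Calcrl at 1.65 (limma, adjusted p = 5.2e-05). ENSRNOG00000064128, among the 6 furthest up in Nb3 against cpTi under loading, tail to tail with the BMP receptor gene Bmpr2 at 2158 bp, had 31.7, 33.7 and 29.6 FPKM in loaded Nb3, against 11.04, 7.85 and 7.66 FPKM in non-loaded Nb3, and 7.21 to 12.6 FPKM in cpTi libraries. Its log2 difference was 1.75, and that of Bmpr2 0.97 (limma, adjusted p = 4.0e-05 and 0.014). Tcim, a small regulator of Wnt signalling, had 12.9, 13.7 and 15.1 FPKM in loaded Nb3, against 1.45, 2.81 and 1.23 FPKM in non-loaded Nb3, a log2 difference of 2.43 ± 0.24 (SE, limma, adjusted p = 1.9e-05). The RHOB row, ENSRNOG00000021403, had 100.2, 183 and 124 FPKM in loaded Nb3, against 41.2, 38.0 and 33.7 FPKM in non-loaded Nb3, a log2 difference of 1.78 ± 0.20 (SE, limma, adjusted p = 4.9e-05). For both, loaded Nb3 lay above all other libraries. Tcim met the 5 FPKM floor only with the loaded Nb3 libraries, so for Tcim this is no finding and its difference is a description only.

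For 3 RNAs, the only libraries at 5 FPKM or more were the 3 of loaded Nb3. They entered through that group, so no test of their difference is given here. They remain in the counts of calls above and in the pairs with coding genes below. ENSRNOG00000068084, 792 bp past Wnt4, a Wnt ligand, had 8.12, 5.87 and 5.89 FPKM there, against 1.99, 0.859 and 1.38 FPKM in non-loaded Nb3. ENSRNOG00000068560, 89 bp past Dcbld2, had 7.33, 8.46 and 8.67 FPKM, against 2.47, 3.52 and 2.60 FPKM. ENSRNOG00000069722, tail to tail with Mid2, had 6.05, 5.30 and 9.997 FPKM, against 2.91, 2.63 and 2.23 FPKM.

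**Figure D2:**
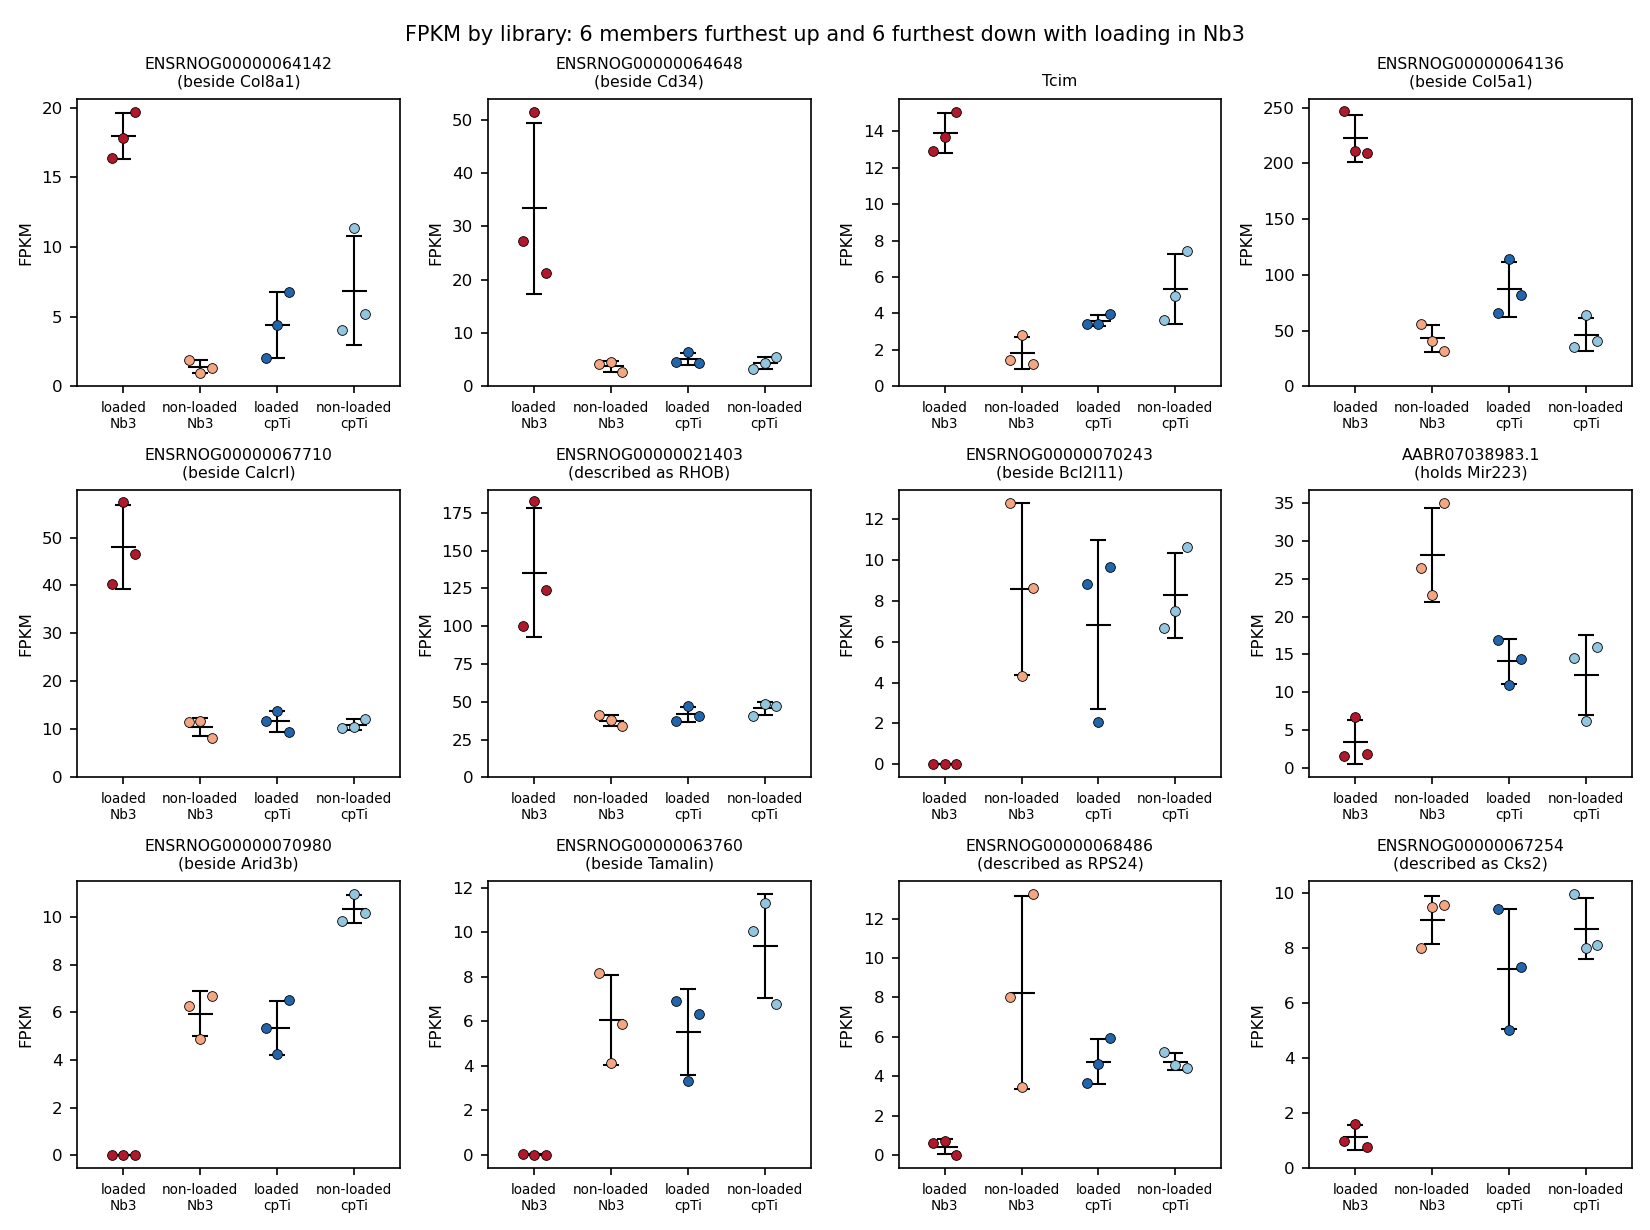
FPKM in each library of the 6 RNAs furthest up and the 6 furthest down with loading in Nb3, in loaded Nb3, non-loaded Nb3, loaded cpTi and non-loaded cpTi (points: libraries; bars: mean ± SD, n = 3). The 12 were picked by the size of this difference, so the lack of overlap between loaded and non-loaded Nb3 in their panels is no finding. Loaded Nb3 is for example at 40.3 to 57.5 FPKM beside Calcrl and at 0 FPKM beside Arid3b. For AABR07038983.1, 1 loaded Nb3 library, at 6.79 FPKM, lies within the cpTi range.

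Among the RNAs that fell furthest was the precursor of a blood cell microRNA. AABR07038983.1 (ENSRNOG00000051216, chromosome X, 61138374 to 61144585, plus strand) contains Mir223 on its own strand. miR-223 is made in myeloid cells, above all neutrophils, and restrains their maturation and activity. The mature strands, from RefSeq (GRCr8, chrX:65151450-65151470 for the 3p and chrX:65151408-65151430 for the 5p strand, both on the plus strand), are shown because they are the known product of this transcript; capitals mark the seed, bases 2 to 8, and the 2 seeds differ.
rno-miR-223-3p: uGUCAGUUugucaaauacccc
rno-miR-223-5p: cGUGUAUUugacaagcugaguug
AABR07038983.1 had 1.60, 6.79 and 1.88 FPKM in loaded Nb3, against 26.5, 22.9 and 35.01 FPKM in non-loaded Nb3. In loaded cpTi it had 16.9, 11.01 and 14.4 FPKM, against 14.6, 6.22 and 16.0 FPKM in non-loaded cpTi. Loaded and non-loaded Nb3 did not overlap, non-loaded Nb3 was above all other libraries, and the second loaded Nb3 library reached into the cpTi range. The log2 difference with loading was -2.89 ± 0.42 (SE, limma, adjusted p = 0.00029) in Nb3 and 0.26 in cpTi. Mir223 itself was listed at 0 in every library of this polyadenylated RNA. With loading in Nb3 the neutrophil precursor markers above were lower too. In cpTi they summed to 2081 to 2336 FPKM with loading and 2624 to 4352 FPKM without, while AABR07038983.1 differed by 0.26. Without loading, the marker sums of Nb3 and cpTi overlapped, while the values of AABR07038983.1 did not. In that comparison limma called 0 of the 207, so this lack of overlap is a description only. The part of neutrophil content in the level of AABR07038983.1 was not tested.

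ENSRNOG00000070243 (LOC102555576), ENSRNOG00000070980 and ENSRNOG00000063760 were near or at 0 with loading in Nb3. ENSRNOG00000070243, 21193 bp past Bcl2l11, a gene of apoptosis, was listed at 0 in all 3 loaded Nb3 libraries, against 12.8, 4.33 and 8.62 FPKM in non-loaded Nb3, and had 2.08 to 10.6 FPKM in the cpTi libraries. Taking 3 reads per library as the floor, it was at least 21.0-fold lower in loaded than in non-loaded Nb3. ENSRNOG00000070980, tail to tail with Arid3b at 1963 bp, was listed at 0 in the same 3 libraries, against 6.28, 4.89 and 6.69 FPKM in non-loaded Nb3. It was at least 21.96-fold lower in loaded than in non-loaded Nb3 by the same floor. ENSRNOG00000063760, 8015 bp past Tamalin, had 0.0626, 0 and 0 FPKM in loaded Nb3, against 8.18, 4.13 and 5.86 FPKM in non-loaded Nb3 (limma adjusted p = 2.2e-05). Tamalin went the other way, at 23.7, 29.3 and 22.6 FPKM in loaded Nb3, against 7.56, 12.5 and 8.16 FPKM in non-loaded Nb3, a log2 difference of 1.35 (limma, adjusted p = 0.0032). Bcl2l11 had 6.56, 9.05 and 5.57 FPKM in loaded Nb3, against 6.36, 6.12 and 7.13 FPKM in non-loaded Nb3 (log2 difference 0.08, limma adjusted p = 0.72).

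The other 2 of the 6 furthest down named a protein. ENSRNOG00000067254, described as Cks2, which binds the cyclin-dependent kinases of the cell cycle, had 0.992, 1.62 and 0.764 FPKM in loaded Nb3, against 8.01, 9.49 and 9.58 FPKM in non-loaded Nb3 (log2 difference -2.25 ± 0.21, SE, limma adjusted p = 1.4e-05), beside the fall of the 5 cell cycle markers. ENSRNOG00000068486, described as the ribosomal protein RPS24, had 0.612, 0.719 and 0 FPKM in loaded Nb3, against 8.04, 3.46 and 13.2 FPKM in non-loaded Nb3 (log2 difference -2.57 ± 0.36, SE, limma adjusted p = 0.00024). Another row carries the RPS24 symbol, so the counting may have split reads between near-identical copies, and this value is uncertain.

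The 37 rows that named a protein moved in both directions: with loading in Nb3, 11 were called higher (29.7%, against 20.7% of all genes tested), 6 lower (16.2%, against 25.2%) and 20 neither, with a median log2 difference of 0.12, against -0.02 over all genes tested. The 4 described here besides those above were chosen after their values were seen. Hilpda had 10.6, 10.2 and 14.1 FPKM in loaded Nb3, against 2.80, 4.71 and 4.50 FPKM in non-loaded Nb3, and 4.43 to 7.70 FPKM in cpTi, a log2 difference of 1.35 (limma, adjusted p = 0.00014). The Gas1 row, ENSRNOG00000065398, had 41.8, 29.1 and 79.0 FPKM in loaded Nb3, against 24.8, 16.8 and 12.9 FPKM in non-loaded Nb3. The Cebpa row, ENSRNOG00000010918, had 11.6, 22.1 and 13.7 FPKM in loaded Nb3, against 31.8, 26.0 and 36.2 FPKM in non-loaded Nb3. The INAFM2 row, ENSRNOG00000069049, had 2.44, 2.04 and 1.86 FPKM in loaded Nb3, against 12.1, 10.5 and 11.2 FPKM in non-loaded Nb3. In none of the last 3 did loaded and non-loaded Nb3 overlap, and all were called (limma adjusted p = 0.0052, 0.0064 and 1.7e-05). Gpx3, which removes peroxides outside cells, had 299.7, 108 and 271 FPKM in loaded Nb3, against 110.4, 104 and 88.5 FPKM in non-loaded Nb3. The second loaded library lay within the non-loaded range, and the log2 difference of 1.03 ± 0.36 (SE, limma, adjusted p = 0.035) lost its call when any Nb3 library other than loaded replicate 2 was left out. Without loaded replicate 1 it was 0.77 and without loaded replicate 3 it was 0.84 (limma, adjusted p = 0.13 and 0.11), and without non-loaded replicates 1, 2 and 3 it was 1.10, 1.06 and 0.94 (limma, adjusted p = 0.057, 0.069 and 0.10). Prelid1 and Timm13, the rows ENSRNOG00000016410 and ENSRNOG00000019682, differed by -0.21 and 0.04 on the log2 scale (limma, adjusted p = 0.40 and 0.91).

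The promoter of Hilpda is shown because the gene is a known target of the hypoxia-inducible factors, whose binding core is ACGTG. The sequence is from RefSeq (GRCr8, chr4:58836213-58836512, plus strand), 250 bases before to 50 after the start, with each match to ACGTG or its reverse complement CACGT in capitals.
Hilpda: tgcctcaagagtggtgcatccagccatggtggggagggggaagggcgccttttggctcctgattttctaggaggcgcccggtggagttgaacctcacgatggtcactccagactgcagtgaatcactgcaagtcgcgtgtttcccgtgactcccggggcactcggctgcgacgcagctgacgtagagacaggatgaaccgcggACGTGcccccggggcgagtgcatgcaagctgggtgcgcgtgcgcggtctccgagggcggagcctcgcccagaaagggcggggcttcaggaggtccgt
It holds 1 match, and 19.3% of the 33469 RefSeq promoters of this length hold at least 1, so the match is a description only.

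The RNAs past a 3′ end moved with the gene they follow. Of the 149 that named no protein, 148 had that gene within 50 kb and 146 had one that was itself tested. Over these 146 pairs the log2 differences with loading in Nb3 had the same sign in 103 (70.5%) and a Pearson r of 0.69 across pairs, which share the same libraries and are no independent replicates. The coding gene on the other side of the same RNAs, at a median of 29966 bp, gave an r of 0.04 (148 pairs), and coding genes with their nearest tested coding gene gave 0.17 (11256 pairs, 55.6% of the same sign). The relation was present on either strand, with r of 0.60 over 76 pairs on the strand of the gene and 0.84 over 70 on the opposite strand. By distance, r was 0.82 over 83 pairs up to 1 kb and 0.81 over 58 pairs from 1 to 5 kb; with 5 pairs beyond 5 kb it was -0.16. Single-exon RNAs gave 0.84 (111 pairs), those with more exons 0.47 (35 pairs), and the 25 protein-naming rows with a tested neighbour 0.06. With loading in cpTi, which shares no library with loading in Nb3, r over the 146 pairs was 0.79 with 78.1% of the same sign, against 0.22 for coding pairs.

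**Figure D3:**
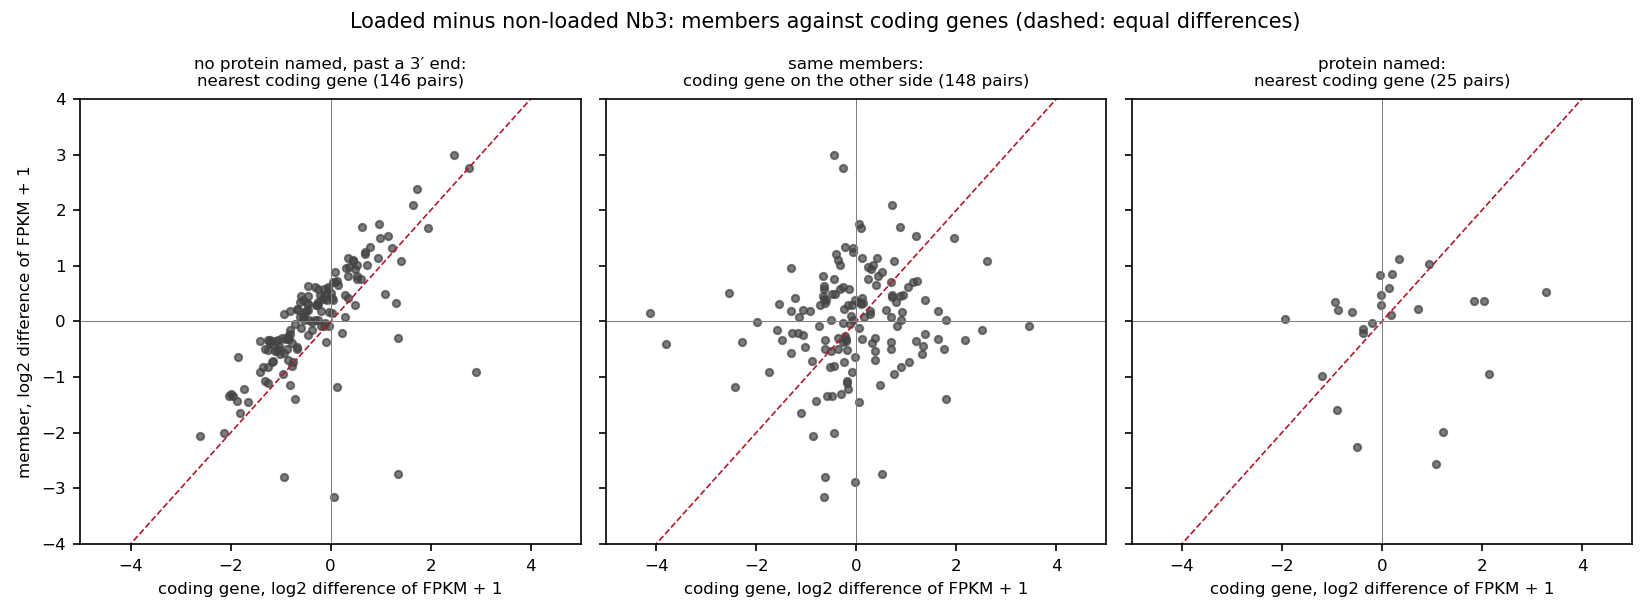
Log2 difference of FPKM + 1, loaded minus non-loaded Nb3, of each RNA (vertical axis) against that of a coding gene (horizontal axis): the gene whose 3′ end it follows, the coding gene on its other side, and the nearest coding gene of rows that named a protein. Points follow the dashed line of equal differences in the first panel (r = 0.69) and not in the second (r = 0.04) or the last (r = 0.06), and most points of the first panel lie above that line.

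The ratio of mean FPKM, which is per length, of RNA to gene had a median of 1.07 and quartiles of 0.685 and 1.39. The floor of 5 FPKM bears on this ratio, since it kept the RNAs with high levels. Of the 80 pairs in which the RNA was called with loading in Nb3, the coding gene was called in the same direction in 53, in the opposite direction in 4 and not called in 23. The sides differed. Where the RNA was called lower, 34 of 39 coding genes were called lower; where it was called higher, 19 of 41 were called higher. Among the 66 pairs in which the RNA was not called, 31 coding genes were called lower and 2 higher. Of all 9819 coding genes over the 5 FPKM floor, 30.2% were called lower and 21.5% higher. The 4 opposite pairs were beside Mcam, Larp4, Rabgap1l and Tamalin. At Mcam, an endothelial and pericyte adhesion molecule, ENSRNOG00000065279 at 258 bp had 21.1, 19.3 and 13.6 FPKM in loaded Nb3, against 31.9, 34.7 and 35.6 FPKM in non-loaded Nb3. Mcam had 48.3, 114 and 52.9 FPKM in loaded Nb3, against 10.97, 7.04 and 6.51 FPKM in non-loaded Nb3. No source used here says that reads were counted by strand. Whether the reads of these RNAs come from separate transcripts or from longer forms of the neighbouring gene was not tested.

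The difference between the sides went with a shift in the ratio of these RNAs to their gene. The log2 difference with loading in Nb3 was larger for the RNA than for its gene in 128 of 146 pairs, by a median of 0.53; the median was 0.08 for the RNAs and -0.41 for the genes. In each library, the median log2 ratio of RNA to gene over the 146 pairs was 0.59, 0.40 and 0.23 in loaded Nb3, against -0.08, 0.16 and -0.11 in non-loaded Nb3. It was 0.06, -0.16 and -0.17 in loaded cpTi, against -0.01, -0.00 and -0.03 in non-loaded cpTi. All 3 loaded Nb3 libraries lay above the other 9. The group means were 0.41 ± 0.18 in loaded Nb3, -0.01 ± 0.15 in non-loaded Nb3, -0.09 ± 0.13 in loaded cpTi and -0.02 ± 0.02 in non-loaded cpTi (SD, n = 3 each).

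The shift was seen on both strands. On the strand of the gene the group means were 0.36 ± 0.21 in loaded Nb3 and -0.03 ± 0.12 in non-loaded Nb3, and on the opposite strand 0.45 ± 0.14 and 0.03 ± 0.19 in the same order (SD, n = 3 each). Since the 5 FPKM floor favours RNAs that are high in some group, the ratio was also taken over the 89 pairs whose RNA passed it in all 12 libraries. There the RNA exceeded its gene in log2 difference in 81 of 89 pairs, by a median of 0.55, and the ratio was 0.62 ± 0.31 in loaded Nb3 and 0.12 ± 0.23 in non-loaded Nb3 (SD, n = 3 each), with the second non-loaded library above the lowest loaded library. Single-exon RNAs (111 pairs) had 0.43 ± 0.18 in loaded Nb3 and -0.05 ± 0.15 in non-loaded Nb3. Those with more exons (35 pairs) had 0.19 ± 0.15 in loaded Nb3 and 0.13 ± 0.21 in non-loaded Nb3, which overlapped. Coding genes over the same floor that lie downstream of their nearest coding gene on its strand showed 0.47 ± 0.05 in loaded Nb3 and 0.49 ± 0.01 in non-loaded Nb3 (1448 pairs). The 117 other tested lncRNA rows past a 3′ end showed -1.03 ± 0.22 in loaded Nb3 and -1.27 ± 0.19 in non-loaded Nb3 (SD, n = 3 each), with overlapping libraries. With loading in cpTi the RNA exceeded its gene in 45 of 146 pairs, with a median of -0.06. The loaded Nb3 libraries also held the higher mitochondrial shares given above, and the part of RNA quality in this shift was not tested.

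**Figure D4:**
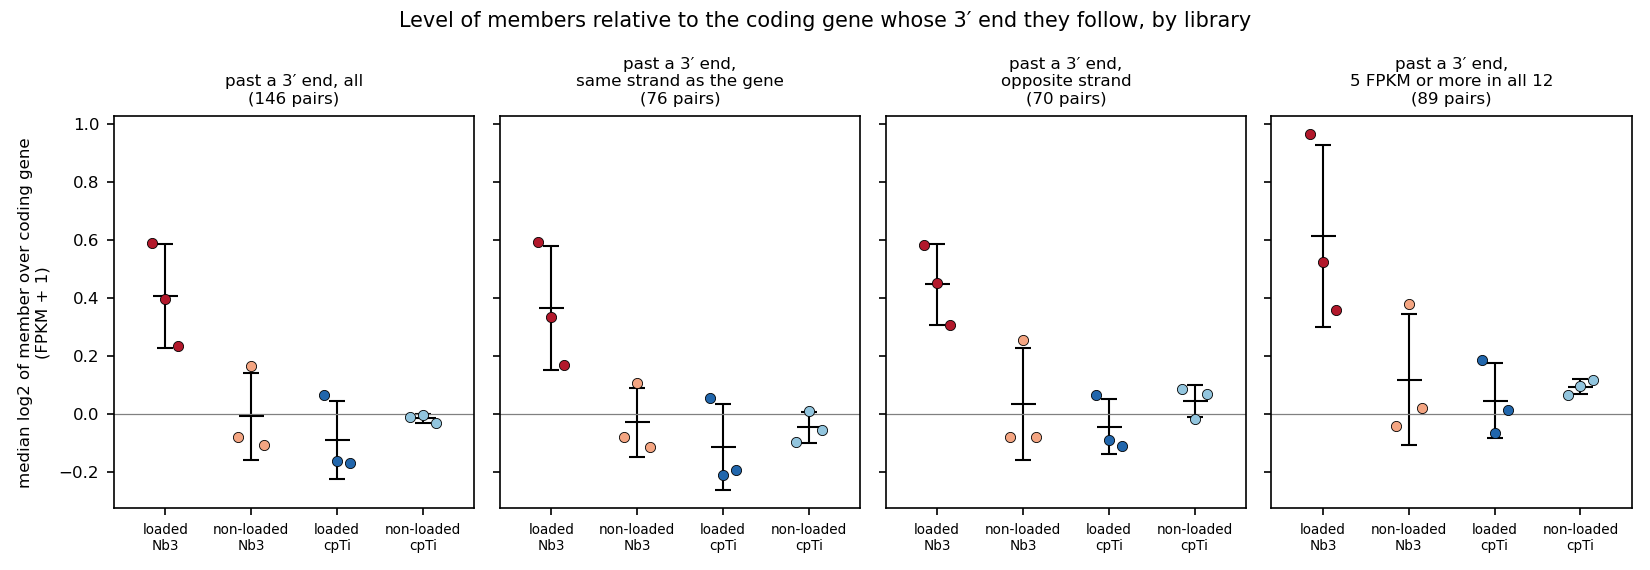
Median log2 ratio of RNA to the coding gene whose 3′ end it follows (FPKM + 1), for each library of the 4 groups (points: libraries; bars: mean ± SD, n = 3), over all 146 pairs, by strand, and over the 89 pairs with at least 5 FPKM in all 12 libraries. Loaded Nb3 lies at 0.23 to 0.59 over all pairs, above the other 9 libraries, and overlaps non-loaded Nb3 in the last panel.

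Several of the 207 are hosts of snoRNAs, small RNAs that guide the chemical modification of ribosomal RNA and are cut from introns of a longer transcript. On their own strand, 8 held at least 1 snoRNA gene and a ninth, AABR07038983.1, held Mir223. With loading in Nb3, 3 of the 8 hosts were called higher (background 20.7% of all genes tested) and 1 lower (background 25.2%), the last being the Cks2 row. With loading in cpTi none was called by limma. ENSRNOG00000066854 (LOC120098269) had 22.1, 31.8 and 23.1 FPKM in loaded Nb3, against 9.02, 17.8 and 9.24 FPKM in non-loaded Nb3 (log2 difference 1.08, limma adjusted p = 0.0024); it was chosen after its values were seen, as were the next hosts. ENSRNOG00000071131 (LOC120102992), which holds 4 snoRNA genes of the SNORA16, SNORA44, SNORA61 and SNORD99 families, had 10.7, 15.1 and 12.6 FPKM in loaded Nb3, against 6.42, 13.9 and 11.7 FPKM in non-loaded Nb3 (limma adjusted p = 0.33). Of the box C/D and H/ACA proteins that bind snoRNAs, 7 were tested and 1, Nop58, was called, lower (log2 difference -0.67), against the same background of 25.2%.

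The host with the most snoRNA genes was also a member of a divergent pair. ENSRNOG00000067892 (LOC100912041, chromosome 1, 205619205 to 205622461, plus strand) holds 7 of the SNORD22 to SNORD31 genes and starts head to head with Slc3a2, the heavy chain of amino acid transporters. It had 5.77, 2.91 and 2.31 FPKM in loaded Nb3, against 4.06, 4.70 and 1.34 FPKM in non-loaded Nb3, and 3.03 to 7.93 FPKM in cpTi. Slc3a2 had 87.9, 104 and 56.0 FPKM in loaded Nb3, against 68.6, 71.9 and 94.1 FPKM in non-loaded Nb3. Neither was called (limma, adjusted p = 0.82 and 0.87), and the groups overlapped for both. The RefSeq promoter of LOC100912041 (GRCr8, chr1:215048085-215048384, plus strand) is shown because Slc3a2 starts from the same stretch on the other strand; 230 of its bases also belong to the RefSeq promoter of Slc3a2 , and capitals mark the first 50 transcribed bases of LOC100912041.
LOC100912041: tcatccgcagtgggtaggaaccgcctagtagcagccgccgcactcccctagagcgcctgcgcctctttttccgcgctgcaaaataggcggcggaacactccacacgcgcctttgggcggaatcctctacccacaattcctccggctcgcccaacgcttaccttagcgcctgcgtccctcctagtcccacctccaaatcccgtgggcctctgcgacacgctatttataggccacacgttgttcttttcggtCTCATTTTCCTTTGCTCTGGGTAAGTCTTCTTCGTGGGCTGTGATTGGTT
Another of the 207, ENSRNOG00000067218, overlaps this host on the opposite strand, and without strand their reads cannot be told apart; 8 of the 207 overlapped another in this way. The remaining 2 divergent pairs were ENSRNOG00000062742 with Fam20c, a kinase of secreted bone and enamel proteins, and ENSRNOG00000066465 with Hspa13. ENSRNOG00000062742 had 5.99, 11.3 and 10.1 FPKM in loaded Nb3, against 13.1, 9.76 and 7.28 FPKM in non-loaded Nb3, and was not called (limma, adjusted p = 0.74). ENSRNOG00000066465 had 2.87, 4.05 and 2.64 FPKM in loaded Nb3, against 5.17, 5.89 and 6.53 FPKM in non-loaded Nb3, a log2 difference of -0.72 (limma, adjusted p = 0.0027), while Hspa13 differed by 0.22 (limma, adjusted p = 0.27).

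Under loading, the 6 RNAs furthest up in Nb3 against cpTi were those beside Cd34, Calcrl, Col8a1 and Bmpr2, Tcim and the RHOB row, with log2 differences of 1.59 (Bmpr2) to 2.40 (Cd34). The 6 furthest down were the 6 that fell furthest with loading in Nb3. This comparison shares its loaded Nb3 libraries with the one above. With loading in cpTi, the 3 smallest p-values belonged to ENSRNOG00000070980, ENSRNOG00000064539 and ENSRNOG00000065259. ENSRNOG00000064539, tail to tail with Cpne1, had 36.1, 42.3 and 42.1 FPKM in loaded cpTi, against 73.6, 56.3 and 58.8 FPKM in non-loaded cpTi, without overlap (log2 difference -0.63 ± 0.14, SE, limma adjusted p = 0.57). In Nb3 the same RNA had 27.9, 25.9 and 24.5 FPKM in loaded and 64.5, 70.2 and 80.4 FPKM in non-loaded libraries (log2 difference -1.42, limma adjusted p = 1.8e-05). ENSRNOG00000065259, described as Ptprk, had 6.0, 9.61 and 7.64 FPKM in loaded cpTi, against 2.55, 4.48 and 4.08 FPKM in non-loaded cpTi (limma, adjusted p = 0.59). Without loading, the 3 smallest p-values for Nb3 against cpTi belonged to Tcim, ENSRNOG00000070980 and ENSRNOG00000064142, with log2 differences of -1.16, -0.71 and -1.62 (limma, adjusted p = 0.68, 0.92 and 0.92).

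Coding partners of well-known long noncoding RNAs were looked at beside them. Of the 8 tested proteins of paraspeckles, the nuclear bodies built on Neat1, 6 were called lower and none higher with loading in Nb3, where 25.2% of all genes tested were called lower and 20.7% higher and, among coding genes over the 5 FPKM floor, 30.2% and 21.5%. These proteins had a median log2 difference of -0.58. Sfpq had a difference of -0.74 and Tardbp of -0.69 (limma, adjusted p = 0.00041 and 0.0020). Of the 7 tested partners of Xist, 4 were called lower, among them Spen at -1.15 and Rbm15 at -1.34. Of the 8 tested coding genes at imprinted loci that hold long noncoding RNAs, 5 were called higher and 1 lower: Igf2, a growth factor, differed by 3.17 and Dlk1 by -1.75. H19, an imprinted RNA of the locus of Igf2, had 17.6 ± 18.1 FPKM in loaded Nb3 and 0.709 ± 0.262 FPKM in non-loaded Nb3 (SD, n = 3 each), a log2 difference of 2.74 ± 0.79 (SE, limma, adjusted p = 0.015). Rpph1 was not called (log2 difference 0.75, limma adjusted p = 0.16) and Tug1 was too low to be tested.

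ENSRNOG00000069616 varied between libraries more than between groups. It had 310.3 FPKM in loaded cpTi replicate 1 and 306 FPKM in non-loaded cpTi replicate 3, 7.34 FPKM in loaded Nb3 replicate 2 and 6.61 FPKM in non-loaded cpTi replicate 2, and below 1 FPKM in the other 8. Its mean therefore rests on 2 libraries. Obp2a, an odorant-binding protein secreted by nasal glands and chosen after its values were seen, was high in the same libraries: 7405 FPKM in loaded cpTi replicate 1, 5586 FPKM in non-loaded cpTi replicate 3, 280.1 FPKM in loaded Nb3 replicate 2 and 226 FPKM in non-loaded cpTi replicate 2, with at most 16.9 FPKM elsewhere. The part of other tissue in these libraries was not tested.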

How the data were processed

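Libraries were prepared from polyadenylated RNA with the Illumina kit NEBNext Ultra (labels' protocols). Tools listed in the submitters' processing notes are HISAT2 2.0.5 and featureCounts 1.5.0-p3, beside CASAVA 1.8, DESeq2 1.20.0 and fastp. No source used here gives the genome build or whether reads were counted by strand. The authors deposited FPKM per gene, with positions, biotypes and descriptions. FPKM times gene length was a whole multiple of 1 read, within 0.01, for 100% of values, so whole reads were recovered and used in an alternative test. The depth implied by FPKM differed from the reads on genes. It was 18057400 in loaded Nb3 replicate 2, against 22308428 reads. In non-loaded Nb3 replicate 2 it was 17076600, against 15278956 reads. Total-read scaling replaces this factor by the reads on genes. The members and lists were chosen with earlier results of these data known.

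The main test was limma 3.58.1 (R 4.3.3) on log2(FPKM + 1), with group means, trended and robust moderation and 12 libraries in the fit, over genes with at least 1 FPKM in at least 3 libraries. It was tested on simulated data. Fold changes on this scale understate those of low genes. The nearest coding gene was taken on the same chromosome by the gap between gene ends, within 50 kb; divergent pairs start head to head within 5 kb. A row named a protein where its description gave a SwissProt similarity or the name of a coding gene. The text names the 6 most abundant RNAs, up to 6 called in each direction per comparison by log2 difference (or the 3 smallest p-values where none was called), the divergent pairs and RNAs over the floor in 1 group only. RefSeq promoters were matched by symbol or locus name for 16 of the 207. Reads limit low values: a member had at least 479 reads over the 12 libraries, with a median of 3979, and floors of 3 reads cover counting error only. Alternatives covered the pseudocount, filters, scaling, limma-voom, moderation, the replicate block, the groups in the fit, the member floor and each library left out.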

Additional observations from a re-analysis of the deposited data

Results flagged for a closer look

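The loading difference differed between Nb3 and cpTi by the interaction term of limma (adjusted p below 0.05) for 46 of the 207 RNAs. Of the 207, 11.6% were called upwards in Nb3, against 8.42% of all genes tested, and 10.6% downwards, against 11.8%, so the share called is near that of all genes. The named RNAs among them, 14 in number, are given here. The interaction is the log2 difference with loading in Nb3 minus that in cpTi. Tcim and ENSRNOG00000064648 met the 5 FPKM floor only with the loaded Nb3 libraries, so their values are a description only. Upwards in Nb3 were ENSRNOG00000064142 beside Col8a1 at 3.53, Tcim (ENSRNOG00000047977) at 2.86, ENSRNOG00000064648 beside Cd34 at 2.56, ENSRNOG00000067710 beside Calcrl at 2.02 and the RHOB row ENSRNOG00000021403 at 1.91. ENSRNOG00000064128 beside Bmpr2 was at 1.76 and ENSRNOG00000064136 beside Col5a1 at 1.47. Downwards were AABR07038983.1 (ENSRNOG00000051216), which holds Mir223, at -3.15, ENSRNOG00000070243 at -2.74, the RPS24 row ENSRNOG00000068486 at -2.55, ENSRNOG00000063760 at -2.05, the Cks2 row ENSRNOG00000067254 at -1.99, ENSRNOG00000070980 at -1.94 and ENSRNOG00000064539 beside Cpne1 at -0.79.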

How the results depend on the processing

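Deviations of same-numbered libraries from their group means correlated at -0.25 to 0.11, with 1 of 18 over 0.1. Those of differently numbered libraries correlated at -0.21 to 0.27. With 3 libraries per group, this check cannot tell whether same-numbered libraries share an animal or a batch. With the replicate block, 99, 82 and 40 of the 207 were called for loading in Nb3, material under loading and the interaction, against 107, 90 and 46 without it, and 0 in the other 2 comparisons. Requiring an absolute log2 difference of at least 1 left 52, 34 and 30 in the same order, and a member floor of 10 FPKM left 69 of 123, 59 of 123 and 36 of 123. Leaving out a library in turn gave 92 to 103 calls for loading in Nb3, 61 to 81 for material under loading and 30 to 46 for the interaction. The share of all tested genes called under each alternative is not given here. These counts therefore describe how stable the calls were, and not whether the 207 differed from other genes. Loading in cpTi and material without loading stayed at 0 calls under each alternative run. Same-sign pairs were 68.3% of 189 in the main setting, and 68.3 to 68.9% under the 5 alternatives for neighbours. Of 49 tested values of named RNAs, 38 were called, 37 of them under every alternative run; Gpx3 lost its call under 10. None changed direction. Depth limits RNAs near the floor, whose totals start at 479 reads over 12 libraries.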
